A study of Mus musculus with 12 samples.

Results

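Interferon gamma is encoded by Ifng and signals through a receptor made of the IFNGR1 and IFNGR2 chains, while the type I interferons signal through IFNAR1 and IFNAR2. These 5 genes were taken by symbol from a table of 11022 genes measured by RNA sequencing in mouse cytotoxic T lymphocytes (CTL), and all 5 were present in it. The CTL came from female P14 TCR transgenic mice (LCMV-P14 strain, 9 to 13 weeks old), whose CD8+ T cells recognise the LCMV glycoprotein peptide gp33-41. The cells had been primed with that peptide together with IL-2 and IL-12, and then expanded in IL-2. There were 3 biological replicates in each of 4 groups, made from lymph nodes or spleens of 3 mice. Unstimulated CTL were compared with CTL whose TCR was retriggered with 100 ng/mL peptide for 4 h (TCR), with CTL retriggered in 10 µM IC87114, an inhibitor of PI3K p110δ (TCR+PI3Kdi), and with CTL retriggered in 2 µM PD184252, a MEK inhibitor (TCR+MEKi). All the groups were cultured with IL-2 at 20 ng/mL, and DMSO was the vehicle.

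Interferon gamma is the signature effector cytokine of CTL and is released after antigen recognition to act on the target tissue, on macrophages and on the T cells themselves. IFNGR1 binds the cytokine and carries JAK1, IFNGR2 completes the receptor and carries JAK2, and the active receptor induces IRF1, guanylate-binding proteins and immunity-related GTPases. IFNAR1 carries TYK2, IFNAR2 is the high-affinity chain and carries JAK1, and together they induce antiviral genes. In T cells IFNGR2 is known as the scarcer chain, whose loss makes cells unresponsive to interferon gamma.

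On GRCm38 (mm10), Ifng (Entrez 15978) lies on the plus strand at chr10:118441046-118445894 and has 4 exons. Ifngr1 (Entrez 15979) lies elsewhere on that chromosome, at chr10:19591949-19610229, with 7 exons. The other receptor chains form a cluster on the plus strand of chromosome 16: Ifnar2 (Entrez 15976, chr16:91372783-91405589, 9 exons), Ifnar1 (Entrez 15975, chr16:91485032-91510523, 11 exons) and Ifngr2 (Entrez 15980, chr16:91547059-91564007, 7 exons). In the GENCODE annotation, exon bases of Ifng overlap the same-strand transcript Gm49751, with 12.4% of the 100-base stretches of Ifng shared. Ifnar2 overlaps Gm21970 there, with 6.31% shared. Reads were counted per RefSeq gene, and whether these overlaps touched either value was not tested. Ifngr1, Ifngr2 and Ifnar1 shared no such stretch with another gene.

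The promoters of Ifng, Ifngr1 and Ifngr2 are printed to show their start-site sequence (RefSeq, GRCm38.p6, plus strand, 250 bases before to 50 after the start). Whether these sequences bear on the direction of change was not tested. Capitals in Ifng mark TATAAA, the core promoter box of that name, which starts at -30, and the letters ACGTAA of the CREB/ATF-type site in the proximal Ifng element, which start at -58. Capitals in the receptor genes mark GGGCGG on either strand, the GC box bound by Sp1-family factors, which in Ifngr1 lies on the minus strand and so is printed as its reverse complement.
Ifng, chr10:118440796-118441095: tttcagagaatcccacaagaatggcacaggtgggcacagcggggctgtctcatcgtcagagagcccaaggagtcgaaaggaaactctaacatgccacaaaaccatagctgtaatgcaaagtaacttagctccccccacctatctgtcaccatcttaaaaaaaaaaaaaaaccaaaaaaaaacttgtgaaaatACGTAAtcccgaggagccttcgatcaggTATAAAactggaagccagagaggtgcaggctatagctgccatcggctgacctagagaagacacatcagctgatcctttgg
Ifngr1, chr10:19591699-19591998: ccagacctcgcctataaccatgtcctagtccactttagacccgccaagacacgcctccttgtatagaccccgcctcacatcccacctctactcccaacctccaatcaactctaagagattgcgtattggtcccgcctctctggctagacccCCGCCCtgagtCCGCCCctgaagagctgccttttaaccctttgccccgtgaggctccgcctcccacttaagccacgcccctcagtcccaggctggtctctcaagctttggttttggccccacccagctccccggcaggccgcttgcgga
Ifngr2, chr16:91546809-91547108: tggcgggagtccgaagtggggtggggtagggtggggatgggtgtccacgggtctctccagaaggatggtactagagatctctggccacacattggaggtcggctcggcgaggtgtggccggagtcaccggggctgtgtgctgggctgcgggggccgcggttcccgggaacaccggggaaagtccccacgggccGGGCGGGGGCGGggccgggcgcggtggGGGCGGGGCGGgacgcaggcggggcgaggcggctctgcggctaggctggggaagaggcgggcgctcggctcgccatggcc

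Of the 5 promoters, the Ifng window alone held TATAAA, which 14.2% of 27025 mouse promoter windows hold, and ACGTAA, which 2.85% hold. Among windows of genes in the table the shares were 6.81% and 3.5%. GGGCGG was in the windows of all 4 receptor genes and not in that of Ifng. It occurred 4 times each in Ifngr2 and Ifnar1, 2 times in Ifngr1 and 1 time in Ifnar2, and 35.9% of all windows hold it, or 65.9% of those of genes in the table. G and C made up 46% of the window in Ifng, 57% in Ifnar2, 60.3% in Ifngr1, 68.3% in Ifnar1 and 74.3% in Ifngr2. The median was 52.7% over all windows and 61% over those of genes in the table, so Ifnar2 and Ifngr1 lay below the latter. TTCNNNGAA, the STAT-binding GAS motif, was found in the Ifng, Ifnar1 and Ifnar2 windows and in 8.47% of all windows. TGANTCA (AP-1) and GGAAAA (the NFAT core) were found in none of the 5 windows, which says only that these letters are not there.

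Retriggering the TCR raised Ifng mRNA about 409-fold and lowered the mRNA of all 4 receptor chains. Of the 5 genes 1 rose and 4 fell, where 33.6% of the 11022 genes tested rose and 34.9% fell (limma on log2(FPKM + 0.1), Benjamini-Hochberg adjusted p under 0.05 over all genes, used throughout). With the added requirement of a change over 2-fold, Ifng was among the 8.87% of genes that rose and Ifngr1, Ifngr2 and Ifnar2 were among the 11.1% that fell. These are bulk samples, so fewer expressing cells and less mRNA per cell cannot be told apart.

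Ifng, the ligand gene, was already expressed in unstimulated CTL, at an FPKM of 68.6, 74.9 and 73.8 in replicates 1, 2 and 3. It reached 31000, 29548 and 28242 after TCR retriggering, 21384, 19922 and 19172 in TCR+PI3Kdi, and 15626, 18253 and 15972 in TCR+MEKi. Ifng was the most highly expressed gene of the table in all 9 retriggered samples, from rank 1008 to 1112 in unstimulated CTL, and no pair of the 4 groups overlapped. The means were 72.4 ± 3.33, 29597 ± 1379, 20160 ± 1125 and 16617 ± 1427 (SD, n = 3 each). TCR against unstimulated CTL was a log2 change of 8.67 (SE 0.09, adjusted p = 2.3e-18 by limma), the 11th largest rise of the table.

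Ifngr1, the ligand-binding chain of the interferon gamma receptor, had the highest FPKM of the 4 receptor genes. Unstimulated CTL gave 201, 188 and 196, TCR retriggered CTL 49.9, 49.0 and 51.5, TCR+PI3Kdi 114, 120 and 113, and TCR+MEKi 97.0, 93.4 and 98.6. All 4 groups were fully separated, with both inhibitor groups between unstimulated and TCR. From a mean of 195 ± 6.45 to 50.1 ± 1.24 (SD, n = 3 each), Ifngr1 fell 3.89-fold with TCR retriggering (log2 change -1.96, SE 0.05, adjusted p = 4.7e-14 by limma).

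Ifngr2, the signal-completing chain, was the least expressed receptor gene in every group. Its FPKM was 3.44, 3.75 and 4.37 in unstimulated CTL, 0.40, 0.44 and 0.84 in TCR, 0.82, 0.39 and 0.70 in TCR+PI3Kdi, and 0.80, 0.56 and 0.79 in TCR+MEKi. Unstimulated CTL stood above all 9 retriggered samples, which overlapped between groups. Ifngr2 fell 6.88-fold in mean FPKM with TCR retriggering (log2 change -2.64, SE 0.26, adjusted p = 4.5e-07 by limma), the 41st largest fall of the table. The values after retriggering correspond to about 8.2 to 17.3 reads per sample, against 80.8 to 121 in unstimulated CTL, so differences among the 3 retriggered groups rest on few reads.

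Ifnar1, the TYK2-associated chain of the type I receptor, moved least. Its FPKM was 13.8, 15.1 and 13.98 in unstimulated CTL, 8.40, 8.29 and 8.56 in TCR, 10.8, 12.8 and 11.99 in TCR+PI3Kdi, and 9.84, 9.72 and 9.03 in TCR+MEKi. The 4 groups did not overlap, in the order unstimulated, TCR+PI3Kdi, TCR+MEKi and TCR. TCR retriggering lowered it 1.70-fold (log2 change -0.76, SE 0.08, adjusted p = 6.1e-07 by limma).

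Ifnar2, the high-affinity chain, had an FPKM of 10.1, 10.2 and 11.2 in unstimulated CTL and 3.71, 3.36 and 3.50 in TCR. It was 4.31, 4.39 and 3.76 in TCR+PI3Kdi and 4.03, 4.94 and 3.48 in TCR+MEKi. Unstimulated CTL again stood clear of all the retriggered samples, while TCR+MEKi overlapped both other retriggered groups. The fall with TCR retriggering was 2.98-fold (log2 change -1.55, SE 0.12, adjusted p = 2.5e-08 by limma).

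**Figure D1:**
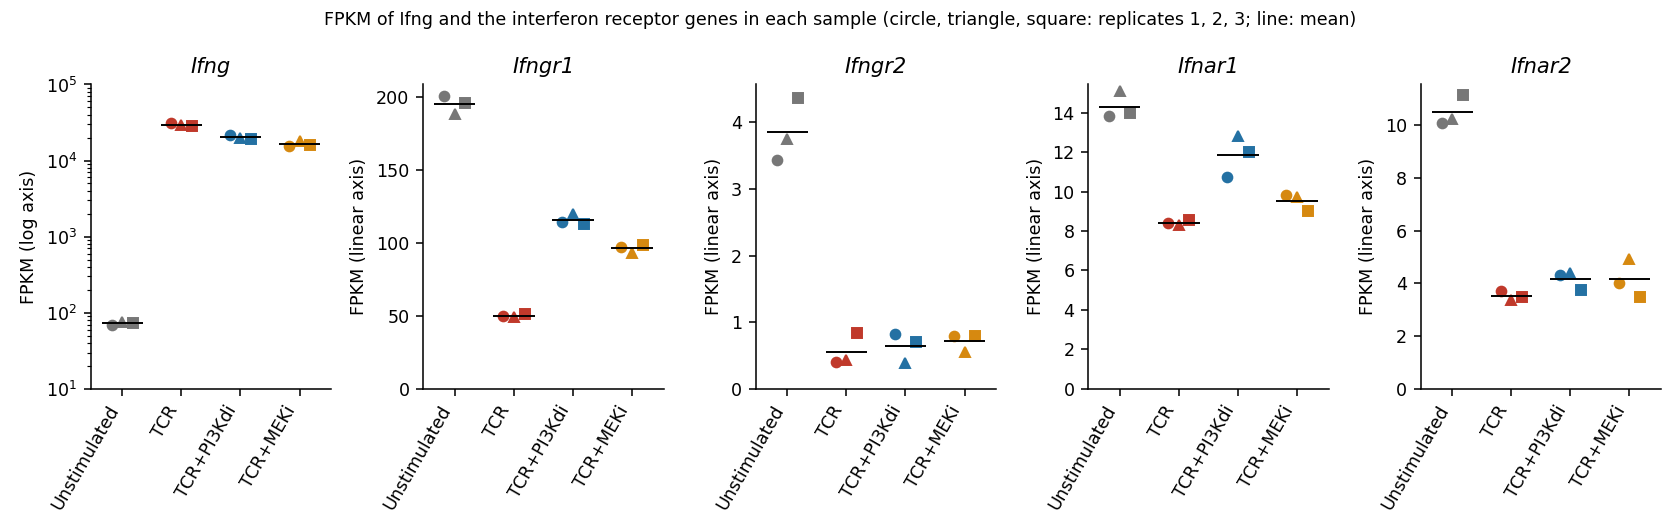
FPKM of Ifng (log axis) and of Ifngr1, Ifngr2, Ifnar1 and Ifnar2 (linear axes from 0) in each of the 12 samples, with the 3 replicates of a group as circle, triangle and square and the group mean as a line. Ifng rose from a mean of 72.4 to 29597 with TCR retriggering while every receptor gene was at its highest in unstimulated CTL, and Ifngr1 in both inhibitor groups (115 and 96.3) lay between unstimulated (195) and TCR (50.1).

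In per-length terms (mean FPKM) the receptor genes kept 1 order in all 4 groups: Ifngr1, then Ifnar1, Ifnar2 and Ifngr2. Neighbours in that order never overlapped within a group. Because TCR retriggering lowered the chains by unequal amounts, the balance within each receptor was also compared within samples, as the log2 ratio of FPKM + 0.1.

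The Ifngr1 to Ifngr2 ratio was 5.83, 5.61 and 5.46 on the log2 scale in unstimulated CTL, that is, 43.9- to 56.8-fold more Ifngr1. It was 6.64, 6.51 and 5.78 in TCR, 6.95, 7.93 and 7.14 in TCR+PI3Kdi, and 6.75, 7.15 and 6.79 in TCR+MEKi. As folds of FPKM + 0.1 these were 54.8 to 100 in TCR, 124 to 244 in TCR+PI3Kdi and 108 to 142 in TCR+MEKi. The ratio differed over the 4 groups (exact permutation test of the F statistic over 369600 assignments, p = 8.4e-04, adjusted p = 0.0013 over 3 such tests). Both inhibitor groups stood above TCR and above unstimulated CTL without overlap, at p = 0.1, the smallest an exact test of 3 against 3 allows. TCR and unstimulated CTL overlapped (exact p = 0.2), and the sign of that difference depended on the pseudocount: 0.68 with 0.1, but -0.29 with 1, since Ifngr2 lay under 1 FPKM after retriggering.

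Ifnar1 and Ifnar2 were closer to each other, with log2 ratios of 0.45, 0.55 and 0.32 in unstimulated CTL. The ratio was 1.16, 1.28 and 1.27 in TCR, 1.30, 1.53 and 1.65 in TCR+PI3Kdi, and 1.27, 0.96 and 1.35 in TCR+MEKi. Retriggered samples all lay above the unstimulated ones, meaning that Ifnar2 lost the larger share, and the 4 groups differed (exact permutation p = 0.0021, adjusted p = 0.0021). TCR+PI3Kdi also stood just above TCR without overlap (difference 0.26, exact p = 0.1, the smallest possible), whereas TCR+MEKi overlapped TCR (difference -0.04, exact p = 0.9).

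Ifng made up 0.0145 to 0.0159% of the summed FPKM of unstimulated CTL. In TCR it was 4.65, 4.76 and 4.48%, in TCR+PI3Kdi 3.65, 3.59 and 3.49%, and in TCR+MEKi 2.98, 3.38 and 2.98%. No groups overlapped, and the exact permutation p over the 4 groups was 6.5e-05, the smallest that 369600 assignments can give (adjusted p = 1.9e-04).

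**Figure D2:**
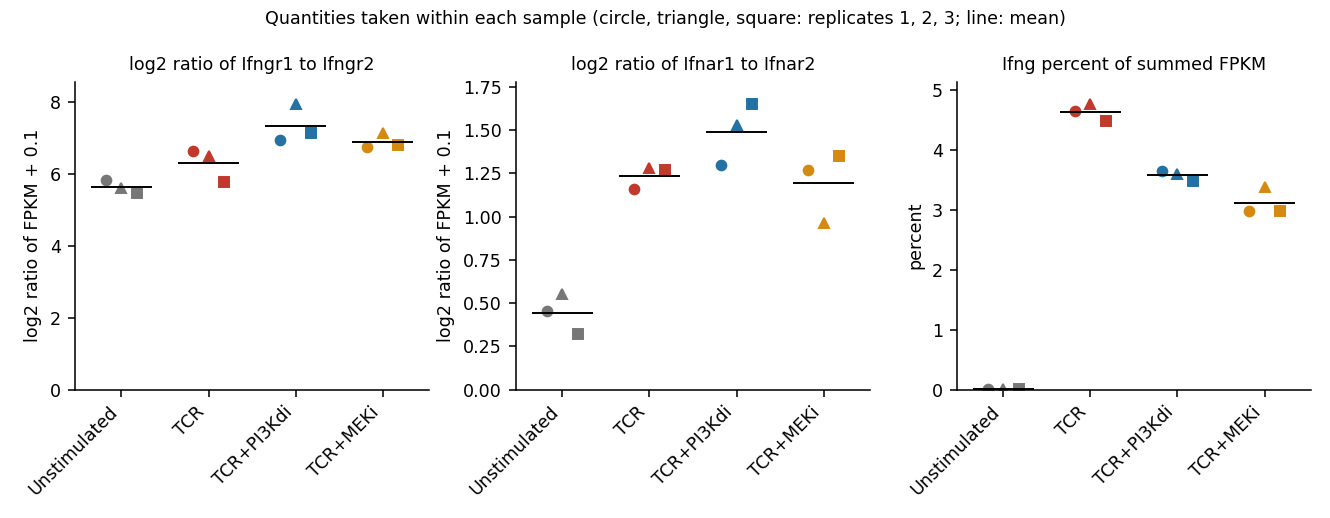
The panels give, for each of the 12 samples, the log2 ratio of Ifngr1 to Ifngr2, the log2 ratio of Ifnar1 to Ifnar2 (both of FPKM + 0.1) and Ifng as a percent of the sample's summed FPKM, with group means as lines and all axes from 0. The Ifngr1 ratio was highest in the inhibitor groups (means 7.34 and 6.90 against 6.31 in TCR), the Ifnar1 ratio was lowest in unstimulated CTL (mean 0.44), and Ifng took 4.63% of the sum after TCR retriggering.

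PI3K p110δ inhibition during retriggering moved Ifng and the receptor genes Ifngr1 and Ifnar1 in opposite directions. Of the 5 genes Ifng fell, where 12.8% of all genes fell, and Ifngr1 and Ifnar1 rose, where 12.7% rose. Ifng was 1.47-fold lower than in TCR (log2 change -0.55, SE 0.09, adjusted p = 3.7e-04 by limma), lower in 3 of 3 same-numbered samples. Ifngr1 was 2.30-fold higher (log2 change 1.20, SE 0.05, adjusted p = 1.5e-09 by limma), the smallest p of all 11022 genes in this comparison and the 20th largest rise, in a set of only 0.499% of genes that rose over 2-fold. Ifnar1 was 1.41-fold higher (log2 change 0.49, SE 0.08, adjusted p = 4.2e-04 by limma).

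Ifngr2 and Ifnar2 did not pass the test with the PI3K p110δ inhibitor. The log2 change of Ifngr2 was 0.17, with a 95% interval from -0.40 to 0.74 that still holds changes of up to 1.66-fold, and adjusted p was 0.68 by limma. For Ifnar2 it was 0.23, with an interval from -0.03 to 0.49 (adjusted p = 0.18 by limma), although its 3 values lay just above those of TCR. The interval of Ifngr2 ended below the change of Ifngr1, 1.20.

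MEK inhibition lowered Ifng further and raised Ifngr1 alone among the receptor genes, against 18.2% of genes that fell and 18.9% that rose. Ifng was 1.78-fold lower than in TCR (log2 change -0.84, SE 0.09, adjusted p = 5.1e-06 by limma) and Ifngr1 was 1.92-fold higher (log2 change 0.94, SE 0.05, adjusted p = 4.0e-09 by limma). Ifnar1 did not pass the test at a log2 change of 0.18 (interval 0.01 to 0.34, adjusted p = 0.091 by limma), although its 3 values stood above the 3 of TCR. Changes of 0.35 for Ifngr2 (interval -0.21 to 0.92, adjusted p = 0.32 by limma) and 0.22 for Ifnar2 (interval -0.04 to 0.47, adjusted p = 0.17 by limma) did not pass either. Both inhibitor comparisons share the 3 TCR samples and are not independent of each other.

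**Figure D3:**
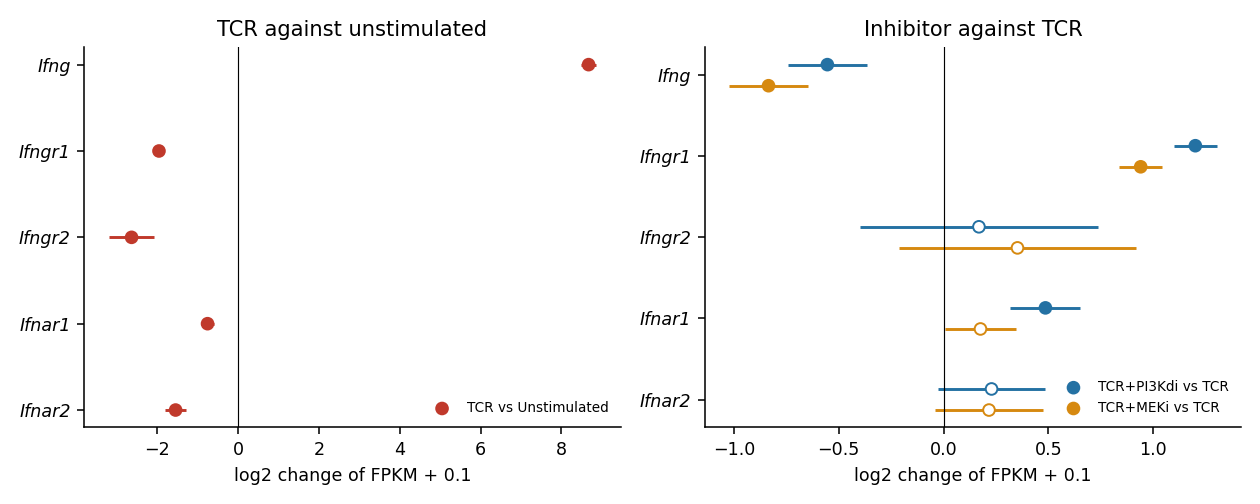
Log2 change of FPKM + 0.1 with its 95% interval for each gene, TCR against unstimulated on the left and each inhibitor group against TCR on the right, filled where adjusted p was under 0.05. With TCR retriggering Ifng rose by 8.67 and the receptor genes changed by -0.76 to -2.64, and with either inhibitor Ifng fell and Ifngr1 rose (1.20 and 0.94), while the intervals of Ifngr2 and Ifnar2 crossed 0.

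The inhibitor groups were compared with each other directly, at doses of 10 µM IC87114 and 2 µM PD184252. Of the 5 genes 3 were lower in TCR+MEKi than in TCR+PI3Kdi, where 14.4% of all genes were. Ifngr1 differed by a log2 change of -0.26 (SE 0.05, adjusted p = 8.3e-04 by limma) and Ifnar1 by -0.31 (SE 0.08, adjusted p = 0.0079 by limma), so the higher level with the PI3K p110δ inhibitor passed its own test for both chains, a call that Ifnar1 lost on the TPM scale (-0.23, adjusted p = 0.078). Ifng differed by -0.28 (SE 0.09, adjusted p = 0.026 by limma), a call that was lost when TCR+PI3Kdi replicate 1 or 2 or TCR+MEKi replicate 1 or 3 was left out (adjusted p 0.054 to 0.094) and with these groups fitted alone (0.11). For Ifngr2 the difference was 0.18 (interval -0.38 to 0.75) and for Ifnar2 -0.01 (interval -0.27 to 0.24).

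Against unstimulated CTL, the 5 genes kept the directions of the TCR response under either inhibitor. In TCR+PI3Kdi 1 rose, against 31.7% of genes, and 4 fell, against 30.8%. In TCR+MEKi 1 rose, against 28.9%, and 4 fell, against 30.7%. The inhibitors therefore left most of the Ifng response in place: TCR+PI3Kdi retained 72.2, 67.2 and 64.7% of the rise in FPKM (68.0% ± 3.81, SD, n = 3) and TCR+MEKi 52.7, 61.6 and 53.9% (56.0% ± 4.83, SD, n = 3). Of the fall of Ifngr1, 45.1% was undone in TCR+PI3Kdi and 31.9% in TCR+MEKi, on average over 3 samples each. For Ifnar1 the share was 39.9, 75.1 and 60.8% in TCR+PI3Kdi, with a mean of 58.6%, and had a mean of 18.9% in TCR+MEKi. Shares of Ifnar2 and Ifngr2 were small and uneven between samples, from -0.62 to 20.3% for Ifnar2 and from -5.16 to 7.89% for Ifngr2 over both inhibitors.

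Genes that carry the signal from these receptors moved in both directions with TCR retriggering. Of 8 transducers listed, all of them measured, 3 rose, 4 fell and 1 did not pass, with a median log2 change of -0.31 against -0.01 over all genes. The shares over all genes were 33.6% rising and 34.9% falling. Rescaled to 1 FPKM sum, 2 transducers rose and 5 fell, where 1682 of all genes rose and 6708 fell. Irf1, an interferon-induced transcription factor, had an FPKM of 56.6, 50.8 and 56.1 in unstimulated CTL and 12.1, 11.8 and 13.4 in TCR, without overlap (log2 change -2.12, SE 0.07, adjusted p = 2.1e-12 by limma). Jak2, the kinase of IFNGR2, rose instead, from 25.3 to 121 (log2 change 2.25), and Stat3 rose from 54.0 to 100 (0.90).

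With the PI3K p110δ inhibitor 2 of the 8 transducers rose and 1 fell, and with the MEK inhibitor 6 rose and 1 fell. Over all genes 12.7% rose and 12.8% fell with the first and 18.9% rose and 18.2% fell with the second. Rescaled to 1 FPKM sum, the transducer counts were 4 and 1, and 7 and 1. On that scale 3810 of all genes rose and 556 fell with the first, and 5535 rose and 648 fell with the second. Irf1 rose slightly in both, by a log2 change of 0.28 and 0.39, each past the test. Jak2 fell by 0.51 and 1.11 on the log2 scale. Stat3 did not pass with the PI3K p110δ inhibitor (log2 change 0.12, adjusted p = 0.10 by limma) and rose with the MEK inhibitor (1.03), and the difference between the inhibitors passed its own test (0.91, adjusted p = 2.0e-08).

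Among 10 negative regulators of these receptors 4 rose and 5 fell with TCR retriggering, and 1 did not pass (median log2 change -0.06). The all-gene shares were 33.6% rising and 34.9% falling. Once samples were rescaled to 1 FPKM sum, 1 regulator rose and 6 fell, where 1682 of all genes rose and 6708 fell. Socs1, a feedback inhibitor of JAK kinases, fell from a mean FPKM of 79.5 to 24.3 (log2 change -1.71, adjusted p = 1.0e-08 by limma), and Usp18, a feedback inhibitor bound to IFNAR2, fell from 20.3 to 7.35 (-1.43). Ptpn6, which encodes the phosphatase SHP-1, rose from 20.8 to 30.7 (0.55), as did Ptpn2, another phosphatase of this pathway (0.67). The inhibitors differed here: 5 of the 10 genes were higher in TCR+MEKi than in TCR+PI3Kdi, where 14.5% of all genes were. Socs1 was 15.8 in TCR+PI3Kdi and 48.0 in TCR+MEKi (log2 difference 1.62, adjusted p = 2.6e-07 by limma), and Ptpn6 was 20.0 and 70.0 (1.80, adjusted p = 9.3e-10 by limma).

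Interferon-induced genes were lower after TCR retriggering, when Ifng mRNA itself was the most abundant. Of 50 such genes measured, from a list of 61, 39 fell, 6 rose and 5 did not pass, with a median log2 change of -1.11, where 34.9% of all genes fell and 33.6% rose. Iigp1, an immunity-related GTPase, had an FPKM of 64.4, 57.2 and 70.2 in unstimulated CTL and 3.61, 4.23 and 6.37 in TCR (log2 change -3.76, SE 0.18, adjusted p = 1.1e-10 by limma). Gbp6, a guanylate-binding protein, fell from 61.1 to 8.43 in mean FPKM, and Tgtp1 and Tgtp2, near-identical GTPase genes whose reads could be split between them, fell by 2.62 and 2.50 on the log2 scale. Ifih1, which encodes the RNA sensor MDA5, was among the 6 that rose, from 1.76 to 8.53 (log2 change 2.21).

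With the PI3K p110δ inhibitor 16 of the 50 rose and 6 fell against TCR, and with the MEK inhibitor 19 rose and 3 fell. Among all genes 12.7% rose and 12.8% fell with the first, and 18.9% rose and 18.2% fell with the second. The medians of the 50 were 0.17 and 0.25, against 0.02 and 0.01 over all genes. Iigp1 rose with the PI3K p110δ inhibitor to 12.97, 12.4 and 17.4 (log2 change 1.59, adjusted p = 2.8e-05 by limma) and stood at 5.32, 4.48 and 6.27 with the MEK inhibitor (0.20, adjusted p = 0.41), a difference that passed its own test (-1.39, adjusted p = 4.6e-05). Gbp2 likewise reached a mean of 90.2 in TCR+PI3Kdi, from 42.0 in TCR, and stood at 43.7 in TCR+MEKi (difference -1.04, adjusted p = 1.6e-04 by limma). Gbp5 went the other way, at 7.36 and 14.3 (difference 0.94, adjusted p = 6.2e-04 by limma). Genes of type I and type III interferons are not analysed here, since none of the 20 listed is among the genes of the table.

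**Figure D4:**
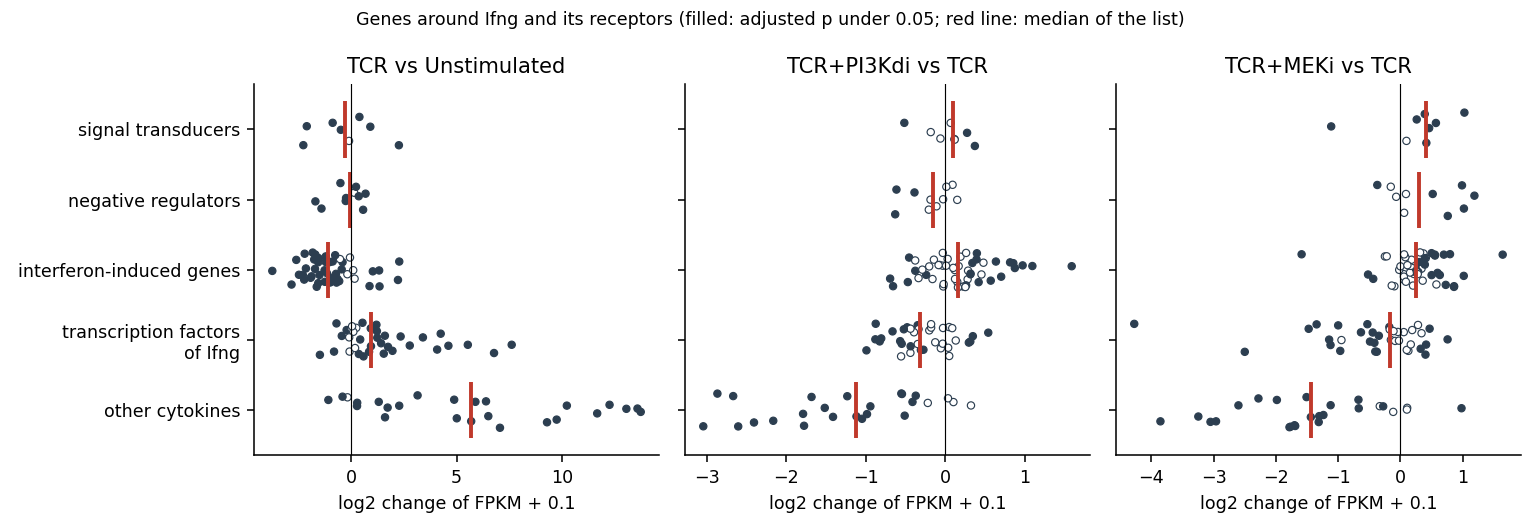
Each point is 1 gene of a listed group, placed by its log2 change of FPKM + 0.1 in TCR against unstimulated (left), TCR+PI3Kdi against TCR (middle) and TCR+MEKi against TCR (right), filled where adjusted p was under 0.05, with the median of each group as a red line. Interferon-induced genes were mostly lower after TCR retriggering (median -1.11) while other cytokine genes were higher (median 5.69), and other cytokine genes were lower with either inhibitor (medians -1.12 and -1.44).

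Upstream of Ifng, 24 of 36 genes listed as its transcription factors rose with TCR retriggering and 5 fell, with 7 not passing (median log2 change 0.92). The list does not separate activators from repressors. Among all genes 33.6% rose and 34.9% fell. Rescaled to 1 FPKM sum, 21 of these factors rose and 10 fell, where 1682 of all genes rose and 6708 fell. Nr4a1 rose from a mean FPKM of 0.75 to 169, Egr2 from 1.47 to 172, Zeb2 from 0.04 to 6.48 and Rel, an NF-kappaB subunit, from 3.68 to 92.7. Tbx21, which encodes T-bet, a transcriptional activator of Ifng, was 14.7, 12.3 and 13.8 in unstimulated CTL and 58.5, 45.5 and 54.9 in TCR (log2 change 1.95, SE 0.11, adjusted p = 6.5e-10 by limma). It fell to 30.9, 23.8 and 31.8 with the PI3K p110δ inhibitor and to 24.6, 23.8 and 24.1 with the MEK inhibitor, below all TCR samples in both (log2 changes -0.88 and -1.12).

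In all, 14 of the 36 fell and 4 rose with the PI3K p110δ inhibitor, and 17 fell and 5 rose with the MEK inhibitor (median log2 changes -0.32 and -0.18), where 12.8% and 18.2% of all genes fell and 12.7% and 18.9% rose. Rescaled to 1 FPKM sum, 11 fell and 8 rose with the PI3K p110δ inhibitor (median -0.14). With the MEK inhibitor 12 then fell and 14 rose (median 0.09). On that scale 556 of all genes fell and 3810 rose with the PI3K p110δ inhibitor (median 0.19). With the MEK inhibitor 648 of all genes fell and 5535 rose (median 0.26), so the median of the factors stayed below that of all genes. Stat5a, which acts downstream of IL-2, fell from 124 in TCR to 62.2 with PI3K p110δ inhibition (log2 change -0.99), and Egr1, an ERK target, from 87.5 to 4.47 with MEK inhibition (-4.27). Of 13 receptor genes upstream of Ifng 7 rose and 5 fell with TCR retriggering, 3 rose and 4 fell with the PI3K p110δ inhibitor, and 5 rose and 2 fell with the MEK inhibitor. Of all genes 33.6% rose and 34.9% fell with TCR. Rescaled to 1 FPKM sum, the receptor counts were 6 and 6, 6 and 0, and 10 and 1. Those of all genes were then 1682 and 6708, 3810 and 556, and 5535 and 648, in the same order. Cd28, the costimulatory receptor, went from 25.1 to 55.9 in TCR and to 111 in TCR+PI3Kdi (log2 change 0.99 against TCR, adjusted p = 3.7e-07 by limma). Il12rb2, the signalling chain of the IL-12 receptor, was 69.0 in unstimulated CTL, 41.6 in TCR, 63.5 in TCR+PI3Kdi and 119 in TCR+MEKi, a 2.86-fold rise from TCR with MEK inhibition. Il18r1 and Il18rap, the chains of the IL-18 receptor, rose by 0.92 and 0.73 with TCR retriggering, and Il12rb1 fell by 0.83 on the log2 scale with MEK inhibition.

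Regulators of cytokine mRNA decay rose in 7 of 8 cases with TCR retriggering and 1 fell (median log2 change 1.15). Among all genes 33.6% rose and 34.9% fell. On the TPM scale 5 regulators rose and 1 fell, where 1682 of all genes rose and 6708 fell. With the PI3K p110δ inhibitor 4 rose and 1 fell, where 12.7% and 12.8% of all genes did. With the MEK inhibitor 2 rose and 3 fell, where 18.9% and 18.2% of all genes did. On the TPM scale the counts with the MEK inhibitor were 2 and 2, with a median of 0.14 in place of -0.12. Of all genes 5535 then rose and 648 fell (median 0.26). On the log2 scale, TCR retriggering raised Zfp36l1 by 2.39, Zc3h12a, which encodes the RNase regnase-1, by 2.14 and Zc3h12d by 1.47. It lowered Zfp36l2 by 2.12. Zfp36, the gene of tristetraprolin, which marks AU-rich cytokine mRNA for decay, was 31.1 in TCR, 51.0 in TCR+PI3Kdi and 21.0 in TCR+MEKi (log2 changes 0.71 and -0.56, both past the test). Zc3h12a was 28.1, 13.6 and 25.1 in the same groups, a fall of 1.05 on the log2 scale with the PI3K p110δ inhibitor.

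Other cytokine and chemokine genes of T cells rose in 22 of 25 cases with TCR retriggering and fell in 2 (median log2 change 5.69). Among all genes 33.6% rose and 34.9% fell. Rescaled to 1 FPKM sum, 20 of the 25 rose and 4 fell, where 1682 of all genes rose and 6708 fell. None of the 25 exceeded Ifng in mean FPKM after TCR. Il3 rose by 13.75, Xcl1 by 13.60, Ccl1 by 13.07 and Il2 by 12.27, all from under 1 FPKM, so these log2 changes are set in part by the added 0.1. Over all genes 12.8% fell with the PI3K p110δ inhibitor, and 18.2% fell and 18.9% rose with the MEK inhibitor. Of the 25, 21 fell with the first inhibitor, and 20 fell and 1 rose with the second. Ifng was among the less sensitive: of the 20 that rose over 2-fold with TCR, 16 retained a smaller share of their rise than Ifng with the PI3K p110δ inhibitor and 16 with the MEK inhibitor (medians 36.3% and 30.9%, against 68.0% and 56.0% for Ifng). Il2 retained 12.4% and 7.17%, Tnf 14.9% and 10.9%, and Csf2 15.7% and 10.7%. Other genes kept more of their rise than Ifng with 1 inhibitor or both. Csf1 retained 141% and 64.8%, Tnfsf10 80.1% and 112%, Spp1 103% and 10.5%, and Il22 12.1% and 195%. Ccl3, also abundant at 19074 FPKM after TCR, retained 70.2% and 37.0%, and Il21 retained 28.5% and 62.4%.

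**Figure D5:**
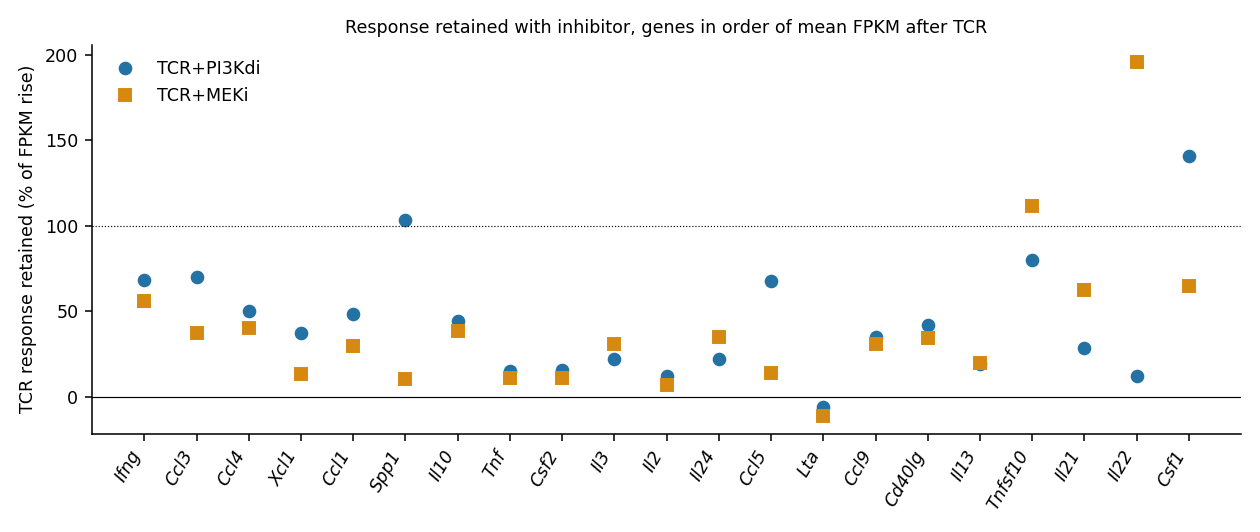
Share of the TCR-induced rise in mean FPKM that was retained with each inhibitor, for Ifng and the 20 other cytokine genes that rose over 2-fold, ordered from left to right by mean FPKM after TCR. Ifng retained 68.0% (TCR+PI3Kdi) and 56.0% (TCR+MEKi), above 16 of the 20 in each case.

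To find the genes whose pattern was most like each member, the log2 values of 9899 genes with a mean FPKM of at least 1 were taken relative to their unstimulated mean and compared over the 12 samples by the root mean square difference. Ccl4, a chemokine gene, was closest to Ifng at 0.34, with group means of 28.3, 17861, 9011 and 7208 in the order unstimulated, TCR, TCR+PI3Kdi and TCR+MEKi. Pdzk1ip1 (0.68) and Crabp2 (0.79) followed at a distance. Cdk19 (0.15), Gimap7 (0.17) and Sgms1 (0.19) were closest to Ifngr1, and shared its intermediate level with either inhibitor: Gimap7, for example, was 79.6, 21.1, 39.1 and 38.7.

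Mtap6, Rab3d and Adora3 (0.26 to 0.28) were closest to Ifngr2, Stk17b, Helb and Ppt1 (0.08 to 0.09) to Ifnar1, and Sh3bp5, Mcm3 and Lrp12 (0.14 to 0.15) to Ifnar2. Genes this close to a receptor gene are its neighbours by pattern over 4 groups only. Among the members themselves, Ifngr1 and Ifnar2 were the closest pair (0.40) and Ifngr1 and Ifngr2 were farther apart (1.16).

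On chromosome 16 the receptor cluster also holds Il10rb, which encodes the shared second chain of the IL-10 and IL-22 receptors and starts 0.568 kb beyond the end of Ifnar2. Il10rb was 26.4, 30.02 and 29.1 in unstimulated CTL and 6.81, 7.46 and 6.45 in TCR (log2 change -2.03, SE 0.08, adjusted p = 7.2e-12 by limma). It stood at 9.84, 9.71 and 9.67 in TCR+PI3Kdi, above all TCR samples (0.49, adjusted p = 3.5e-04 by limma), and at 7.06, 7.46 and 7.69 in TCR+MEKi, overlapping them (0.10, adjusted p = 0.33). Il10ra, its partner chain encoded on another chromosome, did not pass the test with TCR retriggering (0.18, adjusted p = 0.062 by limma) and rose with MEK inhibition (0.95).

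Of the 8 table genes other than the members that lie within 200 kb of a receptor gene of the cluster, 6 fell with TCR retriggering, where 34.9% of all genes fell, with log2 changes over all 8 from -2.03 to 0.05. Besides Il10rb these were Itsn1 (-1.67), Gm10785 (-1.31), Donson (-1.10), Cryzl1 (-0.82) and Tmem50b (-0.30), while Son (0.05) and Gart (0.04) did not pass. Gm10785 overlaps Donson and Cryzl1 in position, so its reads may be shared with them. With the PI3K p110δ inhibitor Il10rb and Donson rose and Gart fell, and with the MEK inhibitor Donson rose. No gene of the table lies within 200 kb of Ifng or Ifngr1.

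The samples matched their label as CTL: 9 of 10 T cell and CTL markers were in the table, among them Cd8a at 213 to 430 FPKM and Gzmb at 8279 to 13582. No B cell, myeloid or erythroid marker of the lists used was among the genes of the table. Of 6 dendritic cell markers 2 were, Itgax at up to 0.75 and Zbtb46, which went from at most 0.03 in unstimulated CTL to 3.27 to 3.63 in TCR. Of 3 CD4 T cell markers 2 were, with Cd4 at 0.28 to 3.65, and of 3 NK cell markers 2 were, Klrb1c at 1.31 to 6.23 and Eomes, which CTL also express, at 70.1 to 114. Summed over their markers, the ranges in unstimulated CTL and TCR were 0.32 to 0.51 and 3.7 to 4.28 for dendritic cells, 74.7 to 83.6 and 108 to 114 for NK cells, and 7.54 to 9.31 and 7.59 to 8.26 for CD4 T cells. In TCR+PI3Kdi they were 2.49 to 2.61, 112 to 117 and 5.27 to 8.23, and in TCR+MEKi 3.12 to 3.77, 73.2 to 82.0 and 9.9 to 11.25, in the same order. The part of other cells in the results was not tested.

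Scaling bears on the smaller changes. When every sample was brought to 1 FPKM total, which is the TPM scale, the median gene moved by -0.41 with TCR retriggering, by 0.19 with the PI3K p110δ inhibitor and by 0.26 with the MEK inhibitor, and by 0.07 between the inhibitors. Of called genes 20.0% were then higher with TCR retriggering in place of 49.0%, 87.3% in place of 49.8% with the PI3K p110δ inhibitor, 89.5% in place of 50.9% with the MEK inhibitor, and 69.5% in place of 50.1% between the inhibitors. Against unstimulated CTL the share was 27.7% in place of 50.8% in TCR+PI3Kdi and 33.1% in place of 48.5% in TCR+MEKi. On that scale Ifnar2 rose with both inhibitors and Ifnar1 with the MEK inhibitor. Interferon-induced genes then rose in 29 cases and fell in 3 with the PI3K p110δ inhibitor, and rose in 35 and fell in 1 with the MEK inhibitor. Of all genes 3810 then rose and 556 fell with the first, and 5535 rose and 648 fell with the second.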

How the data were processed

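Poly(A) RNA of 12 CTL cultures was sequenced as paired ends. Per the labels' processing notes and the study's methods, the authors aligned reads with STAR 2.4.2a to mm10, counted them per RefSeq gene with Subread 1.5.0, dropped low-count genes (filterByExpr) and normalised the rest with edgeR's TMM method. The deposited values are FPKM per sample, from TMM-scaled counts and summed exon length, for 11022 genes. Whether counting used strand is not given in the sources used here. All the value columns were assigned by their headers (0 unassigned).

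From these values log2(FPKM + 0.1) was fitted with 1 mean per group over all 12 samples (R 4.3.3 and its package limma 3.58.1, with an intensity trend in eBayes), for 6 contrasts. P-values were adjusted by Benjamini-Hochberg over all genes, with a threshold of 0.05. The pseudocount of 0.1 understates changes of low genes. P-values measure the spread between 3 cultures a group. Single values were tested by exact permutation over samples (Python 3.11.15, SciPy 1.17.1). The members and gene lists were chosen with earlier results of these data known.

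Named genes are the members, the 3 most like each of them, table genes within 200 kb, and from each list the 4 with the largest change with TCR and the 2 with the largest change with each inhibitor among those past the test with a mean FPKM of at least 1. Tnf, Csf1, Tnfsf10, Spp1, Ccl3, Il21 and the cell type markers fall outside this rule. All of these but the markers were chosen after their values were seen. The fit was tested on simulated data. It recovered 95% of 100 genes changed 2-fold at a low spread between replicates (dispersion 0.01) and 48% at a higher one (0.05). Of 100 genes changed 4-fold it recovered 100% at both, with 10 false calls at 0.01 and 5 at 0.05. The changed genes all had over 1 FPKM in TCR, so this did not cover Ifngr2. The values of 1 listed gene are not reported here.

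Depth is not in the table. Steps between low FPKM values gave an effective depth of 7.88 to 13.28 M reads per sample. At that depth 64.1% to 77.9% of 92 to 116 low values lay within 0.15 of a whole read. A depth fixed in advance would place 30% there by chance, but the depth was chosen to bring these same values closest to whole reads. That share is therefore no independent check, and read numbers are approximate and cover counting error only.

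Replicate numbers are shared by the groups, and whether equal numbers mean the same mouse is not stated. By mean correlation of deviations from group means with samples of the other groups, 11 of 12 samples were closest to their own number. Deviations of same-numbered samples from their group means correlated over 0.1 in all 3 pairs for TCR+PI3Kdi against TCR (0.24 to 0.45), TCR+MEKi against TCR (0.12 to 0.18), TCR+MEKi against TCR+PI3Kdi (0.14 to 0.15) and TCR+MEKi against unstimulated (0.12 to 0.15), over 9899 genes. They did not for TCR against unstimulated (0.0037 to 0.15) or TCR+PI3Kdi against unstimulated (-0.06 to 0.11). Replicate number entered an alternative fit as a block. Other alternatives were 3 other scalings, pseudocounts of 1 and 0.01, dropping genes whose mean FPKM was under 1, the compared groups alone, no trend, and leaving out each sample in turn.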

Additional observations from a re-analysis of the deposited data

How the results depend on the processing

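Over all alternatives, the changes of the 5 genes with TCR retriggering, and those of Ifngr1 in every comparison, kept their direction and call. Quantile normalisation set the change of Ifng between retriggered groups to 0 in all 3 comparisons, by construction, since Ifng ranked first in all 9 retriggered samples. On the TPM scale, calls moved to 4366 genes from 2818 (TCR+PI3Kdi against TCR) and to 6183 from 4090 (TCR+MEKi against TCR). On that scale Ifnar2 passed the test in both (0.41 and 0.47), as did Ifnar1 with the MEK inhibitor (0.44), Ifnar1 no longer passed between the inhibitors (-0.23), Ifnar2 changed sign between them (0.065), and Ifng retained 77.2% (PI3K p110δ inhibitor) and 67.2% (MEK inhibitor). Between the inhibitors Ifnar2 also changed sign with quantile normalisation (0.0073), and Ifng no longer passed with the compared groups alone (-0.28). A pseudocount of 1 turned the difference of the Ifngr1 to Ifngr2 ratio between TCR and unstimulated to -0.29, from 0.68.

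Leaving out 1 sample at a time, the change between the inhibitors ran from -0.35 to -0.24 for Ifng (the call was lost in 4 of 12 cases), from -0.14 to 0.10 for Ifnar2 and from -0.085 to 0.37 for Ifngr2. The change of Ifngr2 with the PI3K p110δ inhibitor ran from -0.016 to 0.45. None of these last 3 ranges passed the test in any case. The cause of these changes was not tested. With the replicate block 3103 genes passed for TCR+PI3Kdi against TCR and 4346 for TCR+MEKi against TCR, and no call of the 5 genes changed in any comparison. Permuting within replicate number gave p = 0.0017 for the Ifngr1 to Ifngr2 ratio, 0.0104 for the Ifnar1 to Ifnar2 ratio and 0.0017 for the Ifng share, where 0.0017 is the smallest such permutations can give.

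Depth limits Ifngr2 most: at about 8.2 to 17.3 reads after retriggering, changes between the retriggered groups smaller than its intervals were not detectable.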
